A study of Mus musculus with 16 samples.

Results

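The 78 probes described here were chosen by their detection calls in mouse lung: each was detected on at least 9 of the 10 cigarette smoke arrays and on at most 1 of the 6 room air arrays. A probe counts as detected where its deposited detection p-value, which ranks its brightness among negative control probes, is under 0.05. They are 78 of the 25697 probes on the array. A gene symbol was given for 72 of them, which name 69 genes, and 6 have none in the annotation used here. Smoke against air is the contrast that chose the probes, so smoke and air values of these probes are a description and carry no test.

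Total RNA of whole-lung homogenates was read on Illumina MouseRef-8 v2 BeadChips, 1-colour arrays with 1 sample per array. The groups were smoke-exposed Mmp28-/- mice (n = 5), smoke-exposed wild-type mice (n = 5), Mmp28-/- mice kept in room air (n = 3) and wild-type mice kept in room air (n = 3). The knockout is on the C57BL/6 background of the wild type and is not described as limited to any cell type, and both genotypes were matched for age and gender, per the labels. Mice entered the smoke chamber at 7 to 9 weeks of age and spent 3 hours there on each of 5 days per week for 3 months, breathing smoke of research cigarettes, while the air mice sat in a similar chamber. MMP28 is a secreted matrix metalloproteinase, and the study asks about its role in emphysema, in which alveolar walls are lost. Nothing states that the replicates are separate animals, so p-values measure only the spread between these samples. In homogenates, fewer cells of a type and less RNA per cell cannot be told apart.

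The targeted gene gave no check of the labels. Of the 2 Mmp28 probes, ILMN_1260453 was detected on 0 arrays. ILMN_3159029 was detected on all 10 smoke and all 6 air arrays, the knockout included, with a level of 5.73 ± 0.31 in Mmp28-/- smoke and 5.99 ± 0.33 in wild-type smoke (SD, n = 5 each). Where either probe lies relative to the deleted part is not given in the sources used here. The tissue label was met: 11 of 12 alveolar epithelial markers with a probe passed the detection filter. Arrays detected 13971 to 15238 probes, and wild-type air replicate 1 had the fewest. The brightness of each array near its background, averaged over probes with a detection p between 0.4 and 0.6, ran from 121.6 to 134.5 units on smoke arrays and from 109.2 to 123.6 on air arrays, so it moved with the exposure. With this background as a covariate in the fit, the median smoke minus air difference of the 78 probes was 0.60 in Mmp28-/- and 0.65 in wild type, against 0.62 in both without it.

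Smoke can bring macrophages, neutrophils and lymphocytes into the lung, and alveolar macrophages take up tar particles and surfactant lipid and swell with lysosomes. Injured lung also makes acute-phase proteins, secreted glycoproteins best known from the liver, whose genes respond to inflammatory cytokines and glucocorticoids. Long exposure remodels airway and vessel walls, where smooth muscle cells carry their own contractile proteins and potassium channels.

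The label of the 78 probes, transcripts switched on by smoke, was only partly borne out by their levels. The levels given here are intensities after background correction and quantile normalization, on a log2 scale. The smoke minus air difference was above 0 for all 78 in both genotypes, as the choice of probes favours, with a median of 0.62 in Mmp28-/- (range 0.11 to 3.10) and 0.62 in wild type (range 0.09 to 3.07). These sizes depend on the treatment of dim probes: the medians were 0.17 in both genotypes without background correction. The authors' processed log2 values gave 0.082 and 0.084 after a further log2, so these 2 medians are not on the same scale. No air array of the genotype detected 46 of the 78 in Mmp28-/- and 57 in wild type, and with those at their lower bounds the medians were 0.39 and 0.37. Medians of role groups below are of fitted differences, not bounds. Where a fold is printed with no bound, 1 of the 3 air arrays of that genotype detected the probe. Over all 16126 tested probes the medians were -6.21e-05 and -0.02. A fitted difference of at least 2-fold in both genotypes was reached by 9 probes of 7 genes, where 0.986% of tested probes reached it. This count takes fitted differences, not bounds. Bounds were under 2-fold for Sfxn3 (1.77 in Mmp28-/- and 1.85 in wild type) and Marchf4 (1.95 and 1.86). In Mmp28-/- they were also under 2-fold for the Cd200r2 probes ILMN_1239931 (1.96) and ILMN_2688180 (1.5). The fitted difference stayed under 1.5-fold in both genotypes for 23 of the 78. Their mean smoke level was under 6 for 72 of them, on a scale where the dimmest detected probe of an array stood between 4.80 and 5.05. Every smoke array lay above every air array for 27 of the 78, against 5.05% of tested probes. In limma's fit 54 of the 78 rose at an adjusted p under 0.05 in Mmp28-/- and 59 in wild type, where 10.2% and 14.4% of tested probes rose, and 0 fell in either, where 9.82% and 13.4% fell; nothing is read from these counts because the same contrast chose the probes.

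On single arrays 69 to 76 of the 78 were detected in Mmp28-/- smoke, 68 to 76 in wild-type smoke, 5 to 17 in Mmp28-/- air and 5 to 9 in wild-type air. All 10 smoke arrays detected 31 of them and 9 arrays detected 47. No air array detected 25 of them and 1 air array detected 53. The strictest pattern, all 10 smoke arrays and no air array, was met by 10 probes. The air detections fell most often on Mmp28-/- air replicate 1, with 17 of the 53, and the missed smoke detections on wild-type smoke replicate 1, with 10 of the 47, and on Mmp28-/- smoke replicate 3, with 9. Mmp28-/- smoke replicate 3 was also the lowest of the 10 smoke arrays for 16 of the 78 probes, against 4 to 10 for the other smoke arrays.

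**Figure D1:**
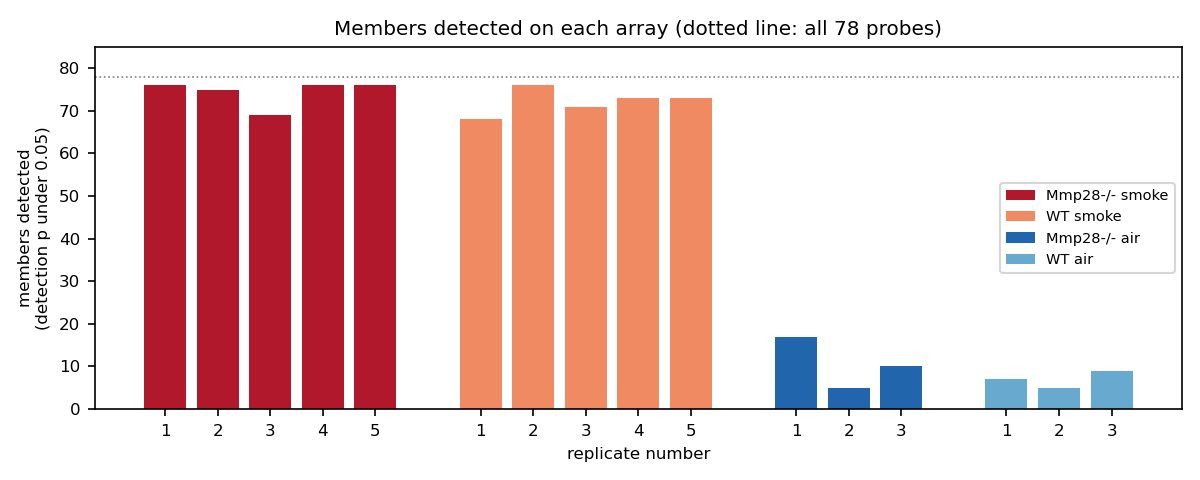
Bars give the number of the 78 probes with a detection p under 0.05 on each array (horizontal axis: replicate number within a group; the dotted line marks 78). Smoke arrays detected 68 to 76 of them and air arrays 5 to 17, the highest of these on Mmp28-/- air replicate 1.

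The acute-phase gene Orm1 had the largest difference and the highest smoke level of the 78. Orm1 and its relative Orm2 encode orosomucoids, plasma glycoproteins that bind drugs and dampen inflammation, and lie on chromosome 4 with 1 gene between them in the RefSeq table used here. The Orm1 probe read 8.34, 8.53, 7.72, 7.72 and 7.20 in Mmp28-/- smoke and 8.30, 7.5, 7.91, 8.35 and 6.89 in wild-type smoke, against 4.99, 4.92 and 4.50 in Mmp28-/- air and 5.01, 4.53 and 4.62 in wild-type air. Every smoke array of either genotype was above every air array, with a spread among smoke arrays wider than among air arrays. The Orm1 difference was 3.10 (SE 0.31), or 8.57-fold, in Mmp28-/-, where 1 of 3 air arrays detected it. In wild type, where no air array detected it, it was at least 7.28-fold. As deposited, before background correction, the Orm1 intensity ran from 277.4 to 467.8 in Mmp28-/- smoke and from 229.6 to 481.9 in wild-type smoke, against 112.9 to 137.2 in Mmp28-/- air and 124.6 to 137.2 in wild-type air.

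The Orm2 probe read 6.59, 6.88, 6.26, 6.34 and 5.57 in Mmp28-/- smoke and 6.36, 5.70, 5.91, 6.32 and 5.58 in wild-type smoke, against 4.67, 4.43 and 4.60 in Mmp28-/- air and 4.62, 4.44 and 4.51 in wild-type air. No air array detected Orm2, so its difference is a lower bound of at least 2.66-fold in Mmp28-/- and at least 2.07-fold in wild type. Orm1 and Orm2 are near-identical in sequence and the probe sequences were not used here, so how far either probe also reads the other gene is uncertain.

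Gpnmb, a glycoprotein of lysosomes and melanosomes known from lipid-laden macrophages, was read by both ILMN_2918882 and ILMN_1236420. The first read 6.69, 6.84, 5.99, 6.56 and 6.13 in Mmp28-/- smoke and 7.15, 6.59, 7.21, 7.01 and 6.74 in wild-type smoke, against 4.76, 4.77 and 4.51 in Mmp28-/- air and 4.64, 5.22 and 4.57 in wild-type air. All smoke arrays were above all air arrays, and the group means differed by at least 2.87-fold in Mmp28-/- and by 4.38-fold in wild type. The second probe differed by 2.26-fold in Mmp28-/- and by at least 2.38-fold in wild type. Gpnmb was not off in air: its other probes, ILMN_2614655 and ILMN_2648669, were detected on all 16 arrays. ILMN_2648669 read 11.50 ± 0.23 in Mmp28-/- air and 10.86 ± 0.55 in wild-type air (SD, n = 3 each), and it rose by 1.61 in Mmp28-/- and 2.47 in wild type (limma adjusted p = 0.000199 and 5.2e-06).

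Cd200r2, a member of the CD200 receptor family of myeloid cells, was the gene with the most probes among the 78, at 3. Its probe ILMN_1239931 read 6.42, 6.28, 5.14, 5.83 and 5.77 in Mmp28-/- smoke and 6.64, 5.45, 6.47, 6.18 and 5.90 in wild-type smoke, against 4.43, 4.72 and 4.70 in Mmp28-/- air and 4.58, 4.50 and 4.49 in wild-type air. No air array detected any of the 3 probes. The bounds were at least 1.96-fold for ILMN_1239931, 1.5-fold for ILMN_2688180 and 1.24-fold for ILMN_2688182 in Mmp28-/-, and at least 2.30-fold, 2.23-fold and 1.33-fold in wild type. On ILMN_2688180 and on ILMN_1239931 Mmp28-/- smoke replicate 3 was the lowest smoke array, at 4.49 and 5.14. CD200 receptor genes are similar to one another, so a probe's reading of other family members is uncertain.

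Ccl11 encodes eotaxin, the chemokine that attracts eosinophils. Its probe ILMN_2862179 read 5.19, 5.63, 4.96, 5.71 and 5.66 in Mmp28-/- smoke and 6.04, 5.74, 4.90, 5.18 and 5.80 in wild-type smoke, against 4.68, 4.59 and 4.35 in Mmp28-/- air and 4.41, 4.39 and 4.38 in wild-type air. It was detected on no air array, and the bounds were at least 1.42-fold in Mmp28-/- and 1.52-fold in wild type. Its other probe, ILMN_2647757, was detected on all 16 arrays and rose by 1.02 in Mmp28-/- and 1.64 in wild type (limma adjusted p = 0.0198 and 0.000614). In the same role group, Azgp1, a zinc-binding plasma glycoprotein, had bounds of at least 1.24-fold in Mmp28-/- and 1.18-fold in wild type. C1qtnf3, a secreted relative of the complement protein C1q, differed by 1.43-fold in Mmp28-/- and by at least 1.42-fold in wild type.

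**Figure D2:**
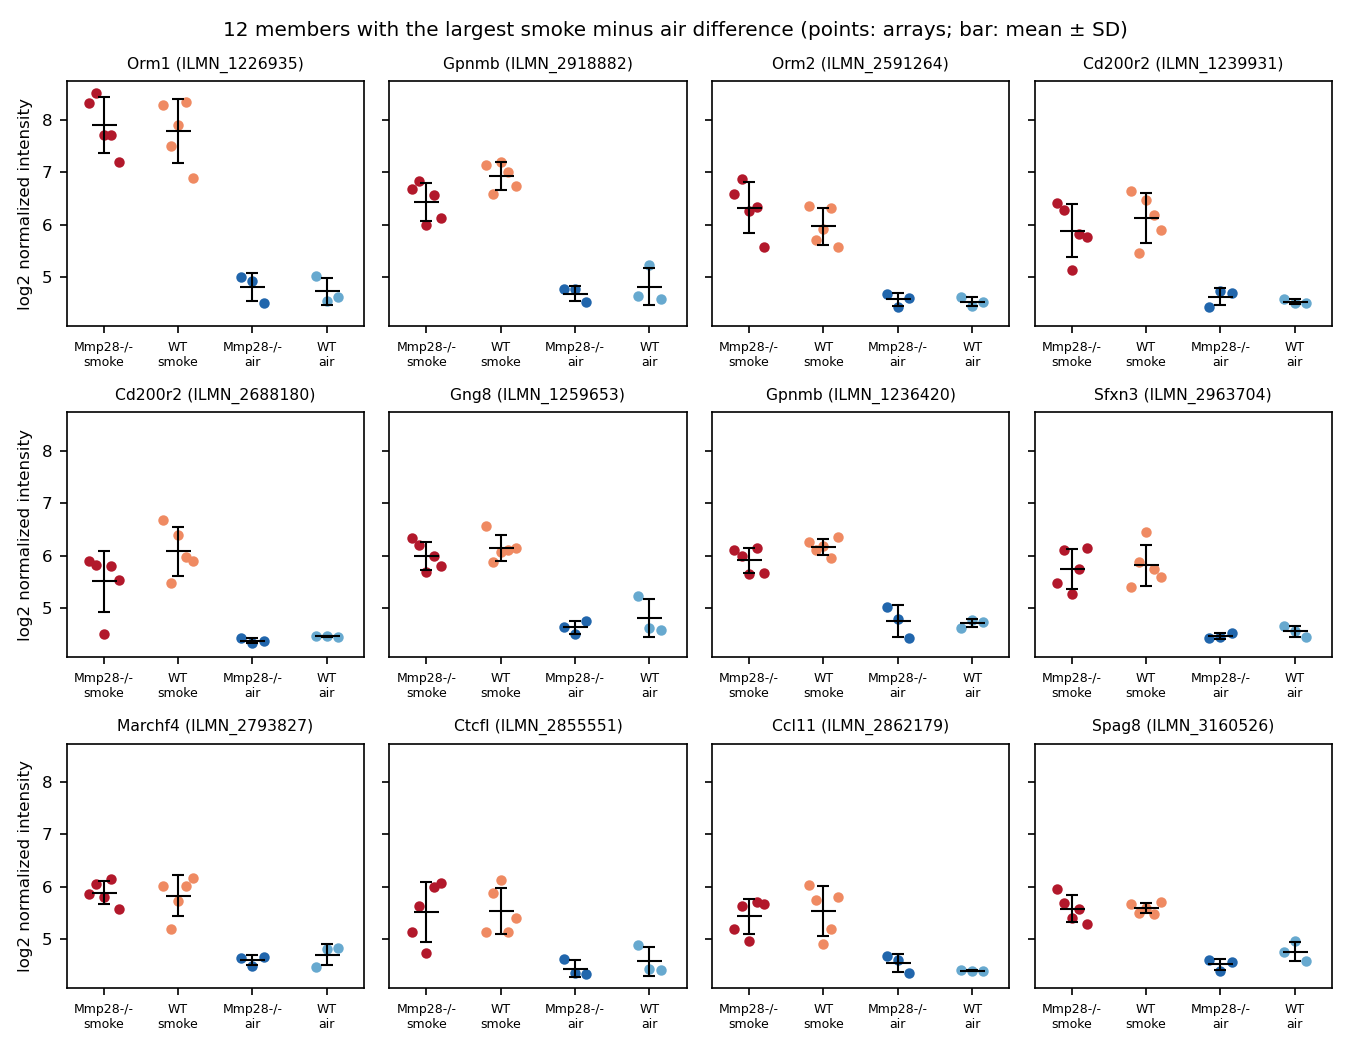
Points are arrays of the 12 probes with the largest smoke minus air difference (vertical axis: log2 normalized intensity; columns: Mmp28-/- smoke, wild-type smoke, Mmp28-/- air, wild-type air), and the bar is the mean ± SD (n = 5 smoke, n = 3 air). Orm1 lies between 6.89 and 8.53 on smoke arrays and between 4.50 and 5.01 on air arrays, while Ctcfl and Ccl11 come down to 4.73 and 4.90 on their lowest smoke arrays.

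The start regions of the leading genes are shown for what they hold near the transcription start. RefSeq windows (GRCm38.p6) of 250 bases before to 50 bases after the start were at hand for 48 of the 69 genes, in 60 windows, and not for Orm1 or Ccl11. They were searched on both strands for 6 motifs picked with the sequences in view: the TATA box TATAAA, the C/EBP palindrome TTGCGCAA, a looser C/EBP form TTNNGNAAT, the antioxidant element core TGACNNNGC, the aryl hydrocarbon response core GCGTG and the M-box core TCATGTG. Capitals mark matches in Orm2 (chr4:63362199-63362498, + strand), Gpnmb (chr6:49036268-49036567, + strand) and Cd200r2 (chr16:44866847-44867146, + strand), the genes with the largest differences that have an entry.
Orm2: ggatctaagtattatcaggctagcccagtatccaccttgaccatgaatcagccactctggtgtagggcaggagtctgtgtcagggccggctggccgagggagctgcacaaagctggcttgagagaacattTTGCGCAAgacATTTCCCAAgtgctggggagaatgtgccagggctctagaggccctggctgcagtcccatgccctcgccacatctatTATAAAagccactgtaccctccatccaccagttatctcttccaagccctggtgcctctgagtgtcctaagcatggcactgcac
Gpnmb: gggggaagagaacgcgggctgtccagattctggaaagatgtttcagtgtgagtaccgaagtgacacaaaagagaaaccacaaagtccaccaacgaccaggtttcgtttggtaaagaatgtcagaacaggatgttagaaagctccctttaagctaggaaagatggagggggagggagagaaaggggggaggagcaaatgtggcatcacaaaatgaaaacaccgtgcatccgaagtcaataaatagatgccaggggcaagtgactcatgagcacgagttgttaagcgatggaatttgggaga
Cd200r2: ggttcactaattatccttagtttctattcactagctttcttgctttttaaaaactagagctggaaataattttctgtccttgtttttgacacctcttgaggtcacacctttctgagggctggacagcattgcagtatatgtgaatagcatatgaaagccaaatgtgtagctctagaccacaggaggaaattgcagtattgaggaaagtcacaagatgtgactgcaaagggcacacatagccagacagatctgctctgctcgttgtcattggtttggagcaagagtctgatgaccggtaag
The Orm2 window held TATAAA from base -33 to base -28, counted from the start at base 1, the palindrome from -120 to -113, and a match of TTNNGNAAT on the minus strand from -109 to -101, none overlapping another. The windows of Gpnmb and Cd200r2 held none of the 6, which says only that these letters are not in these windows.

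The share of windows with each motif follows, for the 60 windows and for all windows of this length. TATAAA was in 5 of 60 windows (8.33%), against 13.6% of all 32851. TTGCGCAA was in 1, that of Orm2 (1.67%), against 0.183% of all, and TTNNGNAAT in 6 (10%), against 11.5%. TGACNNNGC was in 7 windows (11.7%), against 12.4% of all, and GCGTG in 22 (36.7%), against 32.4%. TCATGTG was in 1 window, that of Sec61a2 (1.67%), against 3.77% of all. Some genes have several windows, so windows are not independent.

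Genes of growth arrest, cell death and ubiquitin transfer gave 7 probes, with a median difference of 0.72 in Mmp28-/- and 0.98 in wild type. Marchf4, a membrane ubiquitin ligase, read 5.85, 6.05, 5.81, 6.14 and 5.58 in Mmp28-/- smoke and 6.01, 5.18, 5.73, 6.02 and 6.17 in wild-type smoke, against 4.64, 4.48 and 4.66 in Mmp28-/- air and 4.47, 4.80 and 4.82 in wild-type air. Its smoke and air arrays did not overlap, and the bounds were at least 1.95-fold in Mmp28-/- and 1.86-fold in wild type. Cdkn2a, the locus of cell cycle inhibitors that mark senescent cells, read 5.05, 5.96, 5.29, 5.15 and 5.59 in Mmp28-/- smoke and 6.03, 5.50, 5.54, 5.73 and 5.70 in wild-type smoke, against 4.94, 4.88 and 4.52 in Mmp28-/- air and 4.64, 4.58 and 4.51 in wild-type air. The Cdkn2a difference was 0.63 (SE 0.18) in Mmp28-/- and at least 1.71-fold in wild type. The other Cdkn2a probe, ILMN_1221177, was detected on 1 smoke and 1 air array and was not tested, so these values rest on 1 probe. Bok, a pro-apoptotic protein, had bounds of at least 1.36-fold and 1.47-fold, and its other probe, detected on all 16 arrays, rose by 1.46 in Mmp28-/- and 1.58 in wild type (limma adjusted p = 9.43e-05 and 1.13e-05).

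Among signalling and transport genes, Gng8, a gamma subunit of G proteins, read 6.33, 6.20, 5.68, 5.99 and 5.81 in Mmp28-/- smoke and 6.56, 5.88, 6.07, 6.11 and 6.14 in wild-type smoke, against 4.64, 4.50 and 4.74 in Mmp28-/- air and 5.22, 4.62 and 4.58 in wild-type air. Its smoke arrays were all above its air arrays, and the group means differed by at least 2.12-fold in Mmp28-/- and by 2.54-fold in wild type. Sfxn3, a mitochondrial amino acid carrier of the sideroflexin family, read 5.47, 6.11, 5.27, 5.74 and 6.14 in Mmp28-/- smoke and 5.40, 5.88, 6.45, 5.75 and 5.59 in wild-type smoke, against 4.42, 4.44 and 4.52 in Mmp28-/- air and 4.65, 4.56 and 4.44 in wild-type air. The Sfxn3 bounds were at least 1.77-fold in Mmp28-/- and 1.85-fold in wild type; of its other probes, ILMN_2963700 was detected on all 16 arrays and ILMN_1217021 on 0. Dusp26, a protein phosphatase, differed by at least 1.57-fold in Mmp28-/- and by 1.81-fold in wild type. Signalling genes gave 5 probes with medians of 0.74 in Mmp28-/- and 0.86 in wild type, and metabolism and transport 9 probes with medians of 0.58 and 0.49.

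Genes of transcription and chromatin gave 8 probes with medians of 0.60 in Mmp28-/- and 0.57 in wild type. Ctcfl, the germline relative of the insulator protein CTCF, varied most among the smoke arrays after Orm1 and ILMN_2688180 of Cd200r2. It read 5.14, 5.62, 4.73, 5.99 and 6.07 in Mmp28-/- smoke and 5.14, 5.87, 6.12, 5.13 and 5.39 in wild-type smoke, against 4.62, 4.34 and 4.33 in Mmp28-/- air and 4.88, 4.42 and 4.40 in wild-type air. Its lowest Mmp28-/- smoke array lay within the range of the air arrays. Lbx2, a homeobox factor, had bounds of at least 1.47-fold in Mmp28-/- and 1.71-fold in wild type.

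Genes of cilia, centrosomes and sperm gave 8 probes, with medians of 0.51 in Mmp28-/- and 0.57 in wild type. Spag8, a protein of cilia and sperm tails, was the leading one and differed by at least 1.58-fold in Mmp28-/- and by 1.78-fold in wild type. Extracellular and adhesion genes gave 6 probes, with medians of 0.50 and 0.67. The leading one was Timp4, an inhibitor of matrix metalloproteinases, which read 5.85, 5.83, 5.47, 5.40 and 5.26 in Mmp28-/- smoke and 5.55, 5.69, 5.26, 5.56 and 5.95 in wild-type smoke, against 4.76, 4.68 and 4.47 in Mmp28-/- air and 4.48, 4.68 and 4.92 in wild-type air. Smoke and air arrays of Timp4 did not overlap, and the difference was at least 1.56-fold in Mmp28-/-, where no air array detected it, and 1.87-fold in wild type.

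Genes of muscle, vessels and ion channels were the largest named role group, with 11 probes of 11 genes and medians of 0.53 in Mmp28-/- and 0.62 in wild type. They include Lmod1, which nucleates actin filaments in smooth muscle, Kcnmb1, a regulatory subunit of the calcium-activated potassium channel of smooth muscle, Abcc9, a regulatory subunit of ATP-sensitive potassium channels, and Tcap, a titin-binding protein of striated muscle. Lmod1 differed by 1.45-fold in Mmp28-/- and by at least 1.23-fold in wild type, Abcc9 by 1.28-fold and at least 1.19-fold, and Tcap by 1.85-fold and at least 1.17-fold. Kcnmb1, detected on no air array, had bounds of at least 1.19-fold in Mmp28-/- and 1.13-fold in wild type. Of 18 genes of tissues beside the lung with a probe, 13 were not detected on enough arrays to be tested, among them Myh6, Nppa, Acta1 and Ckm of heart and skeletal muscle and Alb of liver. The muscle genes Myl7, Actn2 and Tnnt2 of the same list are not among those 13. Of the 5 genes tested, 0 rose in either genotype, 1 fell in Mmp28-/- and 0 fell in wild type. Ednrb, the endothelin receptor of type B, read 5.14, 5.12, 4.72, 5.63 and 5.82 in Mmp28-/- smoke and 5.61, 5.64, 5.77, 5.11 and 5.61 in wild-type smoke, against 4.65, 4.84 and 4.46 in Mmp28-/- air and 5.84, 4.35 and 4.62 in wild-type air. The highest value of this Ednrb probe was therefore an air array, wild-type air replicate 1, and its other probes were detected on all 16 arrays.

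Markers of mesenchyme and smooth muscle mostly rose with smoke. The choice of probes favoured a rise in the 11 genes, so nothing is read from the shared direction. Of 13 tested markers, 8 rose with smoke in Mmp28-/- and all 13 in wild type (limma adjusted p under 0.05), with median differences of 0.76 and 1.33, and 0 fell in either. Acta2, smooth muscle actin, rose by 1.25 and 1.5, and Myh11, smooth muscle myosin, by 1.25 and 1.33, in Mmp28-/- and in wild type. The summed level of the 13 marker probes, in normalized intensity, ran from 27097 to 33838 in Mmp28-/- smoke and from 22279 to 32667 in wild-type smoke, against 14425 to 17999 in Mmp28-/- air and 8577 to 11860 in wild-type air. Of 10 endothelial markers, 0 passed in Mmp28-/- and 7 rose in wild type, with summed levels of 21061 to 26717 in Mmp28-/- smoke and 16316 to 27693 in wild-type smoke, against 17383 to 21702 in Mmp28-/- air and 13639 to 17097 in wild-type air. Ednrb, on the endothelial list, is also among the 11 genes. The list read it through its further probe ILMN_2589640, which rose by 0.90 in wild type (limma adjusted p = 0.000797). The part of the mesenchyme, smooth muscle and endothelial markers in the differences of the 11 genes was not tested.

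**Figure D3:**
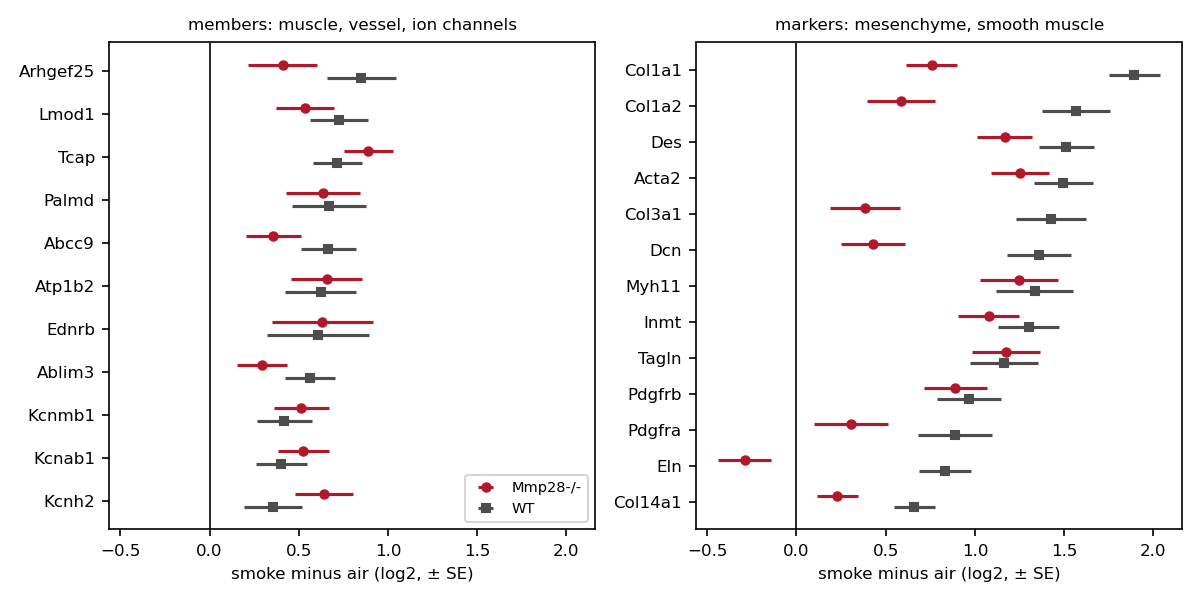
Points give the smoke minus air difference (log2, ± SE from limma) in Mmp28-/- (circles) and wild type (squares) for the 11 muscle, vessel and ion channel genes among the 78 probes and for 13 mesenchyme and smooth muscle markers. Acta2, Myh11, Tagln and Des lie above 1 in both genotypes, while the fitted differences of the 11 genes, several of them against air groups with no detection, lie between 0.29 and 0.89 in Mmp28-/- and between 0.35 and 0.85 in wild type.

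The gene lists that hold members moved only in part. Of 25 tested pattern recognition and acute-phase genes, 6 rose and 6 fell in Mmp28-/- and 7 rose and 6 fell in wild type; 2 of the rising ones, Orm1 and Orm2, are themselves among the 78. Marco, a scavenger receptor of alveolar macrophages, rose by 1.44 in Mmp28-/- and 1.59 in wild type, Trem2, a lipid-sensing myeloid receptor, by 1.34 and 1.35, and Lcn2, the acute-phase lipocalin, by 0.84 and 0.83. Fpr2, a formyl peptide receptor, fell by 0.66 in Mmp28-/- and by 0.97 in wild type, and Cd14, the endotoxin co-receptor, fell by 0.75 and by 0.55. Retnla, a secreted product of alternatively activated macrophages, fell by 0.84 in Mmp28-/- and rose by 1.02 in wild type, and the interaction of the genotypes did not pass the test. The list's median was -0.000564 in Mmp28-/- and 0.15 in wild type.

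Counts of these lists are to be read beside the 10.2% of tested probes that rose and 9.82% that fell in Mmp28-/-, and the 14.4% that rose and 13.4% that fell in wild type. Of 26 chemokines, 3 rose and 0 fell in Mmp28-/- and 6 rose and 1 fell in wild type. Ccl6, Ccl11 and Cxcl14 rose in both genotypes, and Ccl5 fell in wild type. Of 18 lipid and lysosome genes, 4 rose in Mmp28-/- and 8 in wild type, and 0 fell. Ch25h, cholesterol hydroxylase, rose by 1.85 in Mmp28-/- and 2.77 in wild type, and Fabp5, a fatty acid binding protein, by 1.07 and 1.64. Of 9 alveolar macrophage markers, 2 rose in Mmp28-/- and 4 in wild type, 0 fell, and their summed level ran from 38327 to 46188 in Mmp28-/- smoke and from 40042 to 44559 in wild-type smoke, against 35983 to 39920 in Mmp28-/- air and 22621 to 35209 in wild-type air. The chemokine and lipid lists read Ccl11 and Gpnmb through probes other than those among the 78. The part of alveolar macrophage markers in the Gpnmb and Cd200r2 values was not tested. Of 21 T and NK cell markers, 0 rose in either genotype, 7 fell in Mmp28-/- and 11 fell in wild type. Of 14 B and plasma cell markers, 0 rose and 1 fell in each genotype. Of 13 neutrophil markers, 1 rose and 1 fell in Mmp28-/- and 1 rose and 0 fell in wild type, with median differences of -0.35 and -0.38.

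Other probes of the same genes show how far detection speaks for the gene. For 34 of the 69 genes the array holds 56 further probes. Of these 56, 22 were detected on all 16 arrays and 10 on none, and 17 of the 34 genes had a further probe detected on all 6 air arrays. Of the 41 further probes that passed the filter for testing, 36 were higher in smoke in both genotypes, with medians of 0.46 in Mmp28-/- and 0.55 in wild type. The exceptions below 0 in both were the further probes of Rchy1, a ubiquitin ligase, at -0.27 and -0.15, and of Sec61a2, a subunit of the protein translocon, at -0.18 and -0.07, none of them past the test (limma adjusted p of 0.119 or higher). These probes were not used in the choice, but their genes were. Among all tested probes, 50% were higher in smoke in Mmp28-/- and 47.2% in wild type, each genotype counted alone.

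The edge of the rule was gradual. Just outside lay 122 probes, 51 with 8 smoke arrays and 71 with 2 air arrays, with a median difference over the genotypes of 0.47 (range 0.17 to 1.14), against 0.59 for the 78. Outside, Lrrc18, Cyp2a5, a xenobiotic-metabolizing cytochrome, and Armh1 had the largest differences, of 1.14, 1.09 and 1.02. Inside, ILMN_2892678, Glrp1 and Ttc30a1, a protein of intraflagellar transport, had the smallest, and Ttc30a1 read 4.89, 4.99, 5.03, 4.95 and 5.03 in Mmp28-/- smoke and 4.98, 5.05, 4.95, 4.90 and 4.89 in wild-type smoke, against 4.65, 4.90 and 5.05 in Mmp28-/- air and 4.61, 4.62 and 4.70 in wild-type air. The highest Mmp28-/- air array of Ttc30a1 equalled the highest wild-type smoke array at this precision. Under a detection threshold of 0.01 the same rule gave 131 probes, of which 13 were shared, 16.7% of the 78 and 9.92% of the 131; each of the other 118 was detected at 0.05 on 2 or more air arrays. ILMN_1229454 and ILMN_1249828 were left out by the rule; they had 5 smoke and 3 air detections (Cuedc1) and 9 and 4 (Tlcd2).

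**Figure D4:**
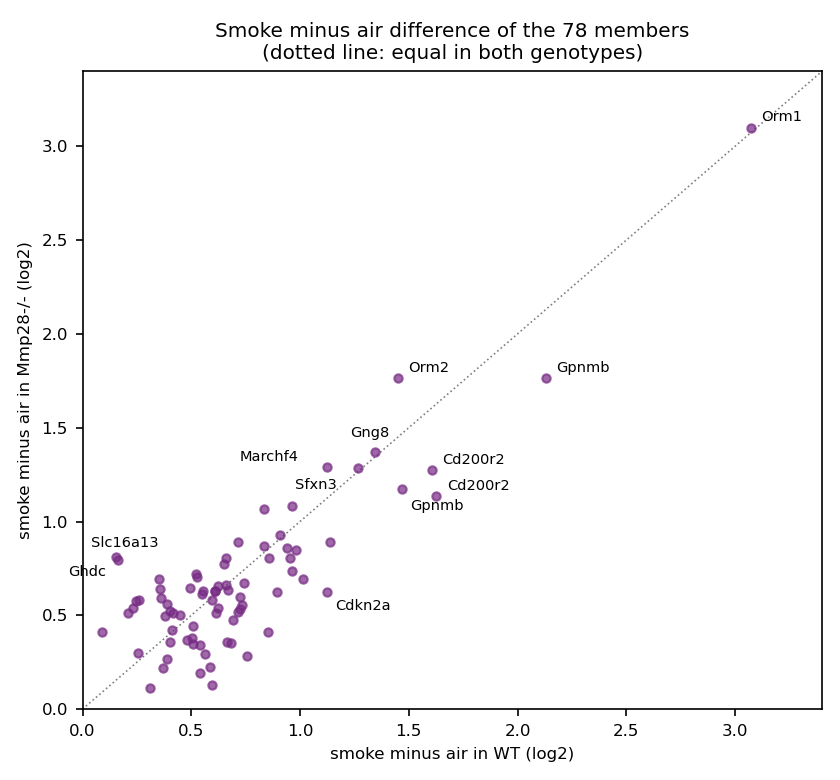
Each point is 1 of the 78 probes, with its smoke minus air difference in wild type (horizontal, log2) and in Mmp28-/- (vertical, log2); the dotted line marks equal differences. Orm1 stands alone at 3.07 and 3.10, and most probes lie under 1 on both axes.

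Genotype was not part of the rule, but the rule limits how far the genotypes can differ. Detection on at least 9 of 10 smoke arrays means detection on at least 4 of 5 in each genotype, and at most 1 of 6 air arrays means that at most 1 array of either genotype detected the probe. A transcript absent in one genotype under smoke could not be among the 78, so the counts below describe these probes, and nothing is read from their being below the shares of all tested probes. Under smoke, 0 of the 78 differed between Mmp28-/- and wild type in limma's fit across all 16126 tested probes, of which 0.0434% did, and the smallest adjusted p among the 78 was 0.999. Before adjustment, 3 of the 78 had p under 0.05, 1 up and 2 down, against 4.46% of tested probes. The median difference was -0.01, with 37 above 0 and 41 below. The 95% interval lay inside a 2-fold difference for 77 of the 78, and for 15923 of all 16126 tested probes. For 0 of the 78 did the 5 arrays of one genotype lie wholly above those of the other, as they did for 1.09% of tested probes.

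The named differences were small. Tcap was higher in Mmp28-/-, at 5.51, 5.65, 5.56, 5.48 and 5.39 against 4.89, 5.07, 5.17, 5.19 and 5.45 in wild type, a difference of 0.36 (SE 0.12, limma adjusted p = 0.999). Orm2 differed by 0.36 (SE 0.20) the same way and did not pass. Gpnmb read by ILMN_2918882 was lower in Mmp28-/- smoke, with a difference of -0.50 (95% interval -0.87 to -0.13, limma adjusted p = 0.999), and its lowest smoke array was Mmp28-/- replicate 3. The other Gpnmb probes gave -0.26 for ILMN_1236420, -0.39 for ILMN_2614655 and -0.21 for ILMN_2648669, all with intervals that include 0 and with limma adjusted p of 0.999. Cd200r2 read by ILMN_2688180 differed by -0.58 (95% interval -1.09 to -0.07), and by -0.32 without Mmp28-/- smoke replicate 3. The other Cd200r2 probes gave -0.24 for ILMN_1239931 and -0.11 for ILMN_2688182, both with intervals that include 0.

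**Figure D5:**
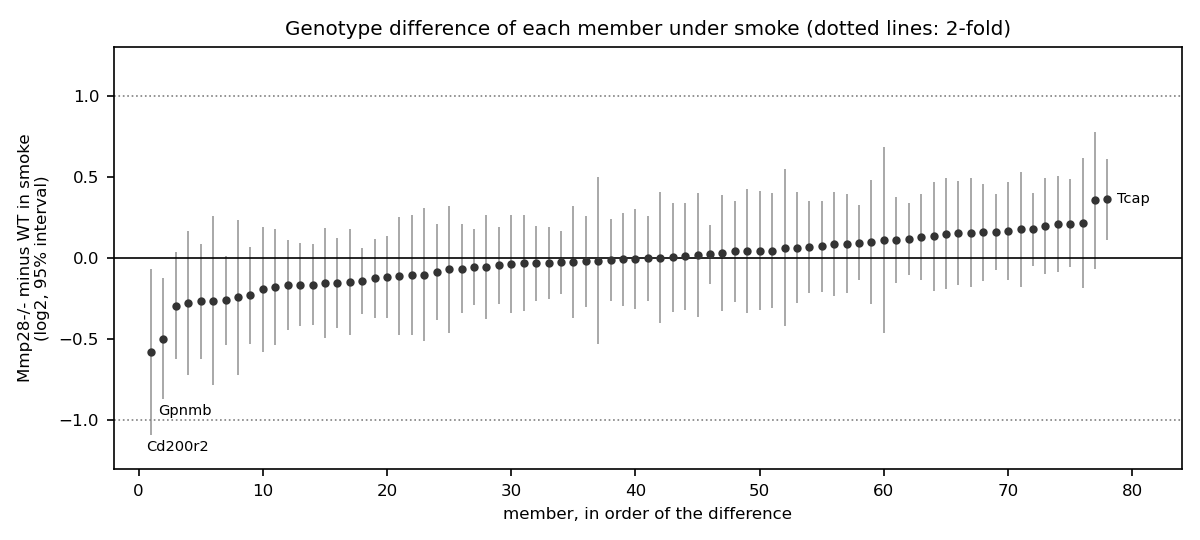
Points give the Mmp28-/- minus wild-type difference under smoke (log2) of each of the 78 probes in order of size, with limma's 95% interval; dotted lines mark a 2-fold difference. The differences run from -0.58 to 0.36, and named are the 3 probes with an unadjusted p under 0.05.

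In air, where the rule allowed at most 1 detection, 0 of the 78 differed between Mmp28-/- and wild type, against 0.273% of tested probes, and no member had an adjusted p below 0.3. Without adjustment, 4 of the 78 had p under 0.05, against 13.7% of tested probes. Hey2, a Notch target, and Cldn11, a tight junction claudin, were higher in Mmp28-/- air, with differences of 0.32 and 0.47, and Ttc34 and Ghdc lower, with differences of -0.35 and -0.43; limma adjusted p ran from 0.3 to 0.325. Cldn11 read 4.75, 4.87 and 5.66 in Mmp28-/- air against 4.69, 4.61 and 4.57 in wild-type air, and Mmp28-/- replicate 3 held most of the difference.

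The response to smoke itself was compared between genotypes by the interaction, the smoke minus air difference in Mmp28-/- minus that in wild type. It was called for 0 of the 78 and for 0.00% of tested probes, with a smallest adjusted p of 0.613 among the 78. Before adjustment, p was under 0.05 for 2 of the 78, against 7.40% of tested probes. The interaction is built from the smoke and air values that the rule constrained, so these counts too are a description. The median interaction was -0.03. The 95% interval lay inside a 2-fold difference for 69 of the 78, and for 13856 of all 16126 tested probes. Ghdc had 0.63 (SE 0.23) and Slc16a13, a monocarboxylate transporter, 0.66 (SE 0.31). For both, wild-type air replicate 1 was the highest air array, at 5.56 for Ghdc and 5.75 for Slc16a13, and without wild-type air replicate 1 the interactions were 0.40 and 0.25. ILMN_1259043, which has no gene name here, had -0.47 and Cdkn2a -0.50 (SE 0.26, limma adjusted p = 0.691).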

How the data were processed

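Whole-lung RNA of 16 samples was measured on Illumina arrays. The authors deposited 1 table with, per probe and array, an intensity that is neither normalized nor background subtracted, judged from its range of 90.9 to 38083.7, and a detection p-value. They also deposited a table of processed log2 values, used as an alternative. A further log2 was taken of these values, so differences from them are not on the scale of the others. The software lumi is listed, without a version, per the submitters' processing notes. All columns were matched to samples by header (0 unmatched). Intensities were processed with neqc in limma 3.58.1 (R 4.3.3), which applies normexp (offset 16, background inferred from detection p-values), quantile normalization and log2. Probes with detection p under 0.05 on at least 3 arrays were kept (16126). One limma fit of 4 group means gave all contrasts (lmFit, eBayes), with Benjamini-Hochberg adjusted p-values over all tested probes and calls at 0.05. Differences in the text are on this log2 scale, and the number of arrays limits their precision.

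Where no array of a genotype's air group detected a probe, the fold is a bound: the smoke mean against the mean over air arrays of the higher of the probe's level and the array's lowest detected level. The platform table gave 1 symbol for 23978 probes, several for 0 and none for 1719. In gene lists the brightest probe stood for a gene. Sequence windows were searched with Python 3.11.15. Named members were the 12 with the highest smoke level, the 12 with the largest smoke minus air difference, the 2 with the smallest p each way per genotype contrast, those on gene lists, the 4 most variable and those at the rule's edge; the further named genes illustrate their role groups. The members, lists and role groups were chosen with earlier results of these data known. No 2 arrays held identical values. Same-numbered replicates were little correlated: of 14 such pairs, 2 had deviations correlated above 0.1 (range -0.21 to 0.16). These correlations cannot show that replicate numbers carry no pairing. The fit was tested on simulated data. Alternatives are in the closing section. The BeadChip of each array is not given in the sources used here.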

Additional observations from a re-analysis of the deposited data

Results flagged for a closer look

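Among 60 checks of samples within groups of 5, 3 stood apart by Dixon's gap criterion, where chance alone flags about 1 in 20. On the Cd200r2 probe ILMN_2688180, Mmp28-/- smoke replicate 3 read 4.49, against 5.53 to 5.89 on the other Mmp28-/- smoke arrays. Mmp28-/- smoke replicate 3 also detected 69 of the 78 probes, against 75 to 76 on the other Mmp28-/- smoke arrays. On the Ednrb probe ILMN_2717765, wild-type smoke replicate 4 read 5.11, against 5.61 to 5.77 on the other wild-type smoke arrays.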

How the results depend on the processing

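The size of the smoke minus air difference depends on how the dim end of the scale is treated. Its median over the 78 probes, 0.62 in both genotypes, was 0.17 in Mmp28-/- and 0.17 in wild type without background correction, 0.30 and 0.30 with an offset of 50, and 1.10 and 1.05 with a stricter filter that only 18 of the 78 passed. In the authors' processed log2 values it was 0.082 and 0.084 after a further log2, which is not the same scale. With undetected air groups at their lower bound, a setting chosen after seeing the data, it was 0.39 and 0.37. The direction stayed above 0 in each. Leaving out each array in turn gave medians of 0.59 to 0.63 in Mmp28-/- and 0.60 to 0.66 in wild type. The rule itself gave 131 probes with a detection threshold of 0.01 and 10 with all smoke arrays and no air array required. Without 1 array, at the same number of exceptions, it gave 81 to 116 (lowest without Mmp28-/- smoke replicate 1, highest without wild-type air replicate 3). All 78 pass the rule without any 1 array by construction, so that count could not fall. The 0 calls among the 78 for Mmp28-/- minus wild type in smoke, in air and for the interaction were 0 in all 11 alternatives that could give them and in the 16 fits without 1 array; the interaction has no fit on only the groups compared. With the replicate block, 0 of the 78 were called in each contrast, and all tested probes gave 11 calls in smoke and 139 in air, against 7 and 44. Counts over all tested probes in air ran from 0 to 139 and in smoke from 4 to 21 over the alternatives. Without 1 array the air count ran from 1 to 121, and it was 2 without wild-type air replicate 1. The alternatives gave 955 values of single probes. Of these, 878 moved by less than the spread between replicates or kept their side of the threshold, and 77 moved further. No genotype value among them was called, so no called value could change sign. Uncalled genotype values that changed sign were counted as moved further. The cause was not tested. The 955 values include those from the authors' table, which are on another scale.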
